A study of Mus musculus with 6 samples.

Results

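Amino acids and sugars enter cells through membrane proteins of the solute carrier families. The genes described here are those whose mouse symbols begin with Slc1a, Slc2a, Slc3a, Slc5a, Slc6a, Slc7a, Slc36a, Slc38a or Slc43a, without Slc7a11 and Slc2a1. The rule found 87 genes among the 25528 of the count tables. By name 86 of them encode carriers or carrier subunits, and Slc7a6os is a gene on the strand opposite Slc7a6 that the symbol rule also takes in. Of the 87, 39 had enough reads to be tested and 48 did not.

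The libraries were made from polyadenylated RNA of mouse organoids of the gastric corpus, the acid-secreting body of the stomach, grown in 3D culture. The overexpressing group (Erbb2_OE_Corpus, genotype Erbb2 Overexpression, 3 libraries) overexpressed Erbb2, the gene of a receptor tyrosine kinase, and the control group (Ctrl_Corpus, genotype Control, 3 libraries) had been transduced with an empty vector, so that the control cells had been transduced too. Promoter and species of the Erbb2 construct, mouse strain, age, clone and number of cultures were not given in the labels used here, so that p-values measure the spread between these libraries, which may be technical. The comparison asks which transporter genes differed with Erbb2 overexpression in cultured epithelium.

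Heteromeric carriers consist of a heavy chain, which brings the complex to the plasma membrane, and a light chain, which moves the amino acid. Other families work alone: some are driven by the sodium gradient, some by protons, and the facilitative sugar transporters let sugars pass down their gradient. In epithelia these proteins supply essential amino acids for protein synthesis and for the kinase complex mTORC1, which senses them at the lysosome.

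Levels are in CPM, counts per 1000000 counts with library sizes scaled by TMM (trimmed mean of M values). Totals lay between 18735853 and 22767455 counts. Both libraries of replicate 3 lay apart from the other 4 along principal component 1 (57.8% of variance). Libraries with the same replicate number deviated together, and differences were therefore also fitted with the number as a block. In edgeR without the block 0 of 39 tested members were called at an adjusted p of 0.05 over all 12593 genes tested, and 0.0% of all genes were called higher and 0.0% lower; at an unadjusted p under 0.05 it was 0 of 39 members against 3.33% of all genes, and DESeq2 without the block called 0 members, against 0.222% of all genes called higher and 0.0476% called lower. Rose and fell are written below of genes that passed in edgeR with the block. Each of them missed the threshold in edgeR without the block, where the adjusted p was 0.9997 for each of the 3 members named next. Erbb2 stood at 125, 164 and 128 CPM in control replicates 1, 2 and 3 and at 342, 349 and 285 CPM in the overexpressing ones, a 2.35-fold difference with the block (edgeR, adjusted p = 3.47e-05, or 0.64 without the block).

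With the block, 3 of 39 tested members rose and 0 fell. They were Slc1a4, Slc3a2 and Slc7a5, which carry neutral amino acids or form part of such a carrier, and their folds lay between 1.31 and 1.60. Among all genes tested 2.37% were called higher and 0.723% lower, and the members called higher were 7.69% of those tested. DESeq2 and limma voom with the block each called the same 3 members higher and 0 lower, where 2.91% and 2.47% of all genes were called higher and 0.762% and 0.842% lower. At an unadjusted p under 0.05, 10 members were higher and 1 was lower, against 9.64% and 7.2% of all genes. The median log2 fold change of the 39 members was 0.20, with 25 above 0 and 14 below, and that of all genes tested was -0.01. In 12 of the 39 the overexpressing library was higher in 3 of 3 pairs of equal number, and in 6 it was lower in each; among all genes these shares were 19.6% and 19.2%.

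Slc1a4 and Slc3a2 are shown by the sequence before their start sites, because they had the smallest p-values and their promoters are in the RefSeq table (build GRCm38.p6; the counts were made on GRCm39). Capitals mark matches to TGATGNAA, the core of the element read by C/EBP and ATF factors, on either strand; N is any base. Slc3a2, Slc7a5 and Slc1a4 are known in other cells as targets of ATF4, a factor made when amino acids are short.
Slc1a4, chr11:20332710-20332963, minus strand, 250 bases before the start and 4 after: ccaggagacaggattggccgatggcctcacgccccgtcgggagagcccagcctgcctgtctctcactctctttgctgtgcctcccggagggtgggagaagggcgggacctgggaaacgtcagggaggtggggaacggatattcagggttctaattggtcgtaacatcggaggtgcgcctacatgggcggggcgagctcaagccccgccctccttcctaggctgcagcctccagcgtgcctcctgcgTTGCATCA
Slc3a2, chr19:8713898-8714147, minus strand, 250 bases before the start: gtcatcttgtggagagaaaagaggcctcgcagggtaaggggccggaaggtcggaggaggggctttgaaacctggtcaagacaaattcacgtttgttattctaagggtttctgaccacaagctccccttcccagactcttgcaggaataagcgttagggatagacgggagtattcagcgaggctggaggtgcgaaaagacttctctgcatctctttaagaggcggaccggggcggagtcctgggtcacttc

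In Slc1a4 the word lay on the opposite strand from position -4 to 4, counted from the start site with no position 0. The letters of TGATGNAA were in 3.97% of the 32851 promoter windows of all genes, each running from 250 bases before to 50 after a start. The 28 tested members with a promoter in the table had 38 windows, of which 3 held it. These belonged to 2 members, Slc1a4 and Slc7a7. Slc7a7 held 2 matches, from -141 to -134 and from -1 to 7, and the window of its other start held the second match too. Its windows are printed beside Slc1a4 because Slc7a7 held the word and did not pass the test (mean 24.9 CPM in both groups).
Slc7a7, chr14:54418067-54418096, minus strand: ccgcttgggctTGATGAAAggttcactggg
Slc7a7, chr14:54417927-54417956, minus strand: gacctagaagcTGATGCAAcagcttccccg
The E-box word CACGTG, which does not overlap TGATGNAA and was searched likewise, was in 7.15% of all windows and in 2 of the 38 windows of members. These belonged to 2 of the 28 members, Slc38a7 and Slc36a1, neither of which passed the test. Tested members without an entry were Slc1a5, Slc2a4, Slc38a1, Slc38a3, Slc5a9, Slc6a6, Slc6a8, Slc7a2, Slc7a3, Slc7a4 and Slc7a5. A match of letters is a description and not a bound site.

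The heavy chain gene Slc3a2 (ENSMUSG00000010095), which encodes the surface glycoprotein that holds light chains at the plasma membrane, was at 112, 75.2 and 119 CPM in control replicates 1, 2 and 3. In the overexpressing replicates it was at 149, 115 and 155 CPM. Each overexpressing library was above its control of the same number, and the groups overlapped, since control replicate 3 exceeded overexpressing replicate 2. Slc3a2 rose 1.38-fold (log2 fold change 0.46, SE 0.08, adjusted p = 0.0102 in edgeR with the block). Leaving out replicate 1, 2 or 3 gave an adjusted p of 0.0267, 0.147 or 9.6e-06, so that the call was lost without replicate 2. Slc3a1, the heavy chain that pairs with the cystine carrier of kidney and gut, had between 2 and 10 counts in each library and was not tested.

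Of 9 light chain genes among the members, which leave out Slc7a11, 3 were tested and 1 rose. Slc7a5 (ENSMUSG00000040010), whose product exchanges glutamine for leucine and other large neutral amino acids and pairs with Slc3a2, was at 112, 61.7 and 139 CPM in the controls. It was at 164, 83.8 and 159 CPM in overexpressing replicates 1, 2 and 3. Both libraries of replicate 2 were the lowest of their groups, and the groups overlapped. Slc7a5 rose 1.31-fold (log2 fold change 0.39, SE 0.09, adjusted p = 0.0321 in edgeR with the block), with log2 differences of 0.55, 0.44 and 0.19 within pairs 1, 2 and 3. Its adjusted p was 0.190 without replicate 1 and 0.221 without replicate 2, so that this call needed all 3 pairs, or pairs 1 and 2 (1.79e-05 without replicate 3).

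The other tested light chain genes among the members did not pass. Slc7a6, which exchanges cationic for neutral amino acids together with Slc3a2, was at 38.9 ± 5.01 CPM with the empty vector and 42.0 ± 3.35 CPM with Erbb2 (SD, n = 3), with a fitted log2 difference of 0.11 (SE 0.09). Slc7a6os was at 28.2 ± 6.28 and 26.5 ± 3.89 CPM. The strand setting of the counting is not given in the sources used here, so that reads of Slc7a6 and Slc7a6os cannot be told apart where they overlap. Slc7a7, a partner of Slc3a2 that releases cationic amino acids, was at 24.9 ± 4.79 and 24.9 ± 4.82 CPM.

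**Figure D1:**
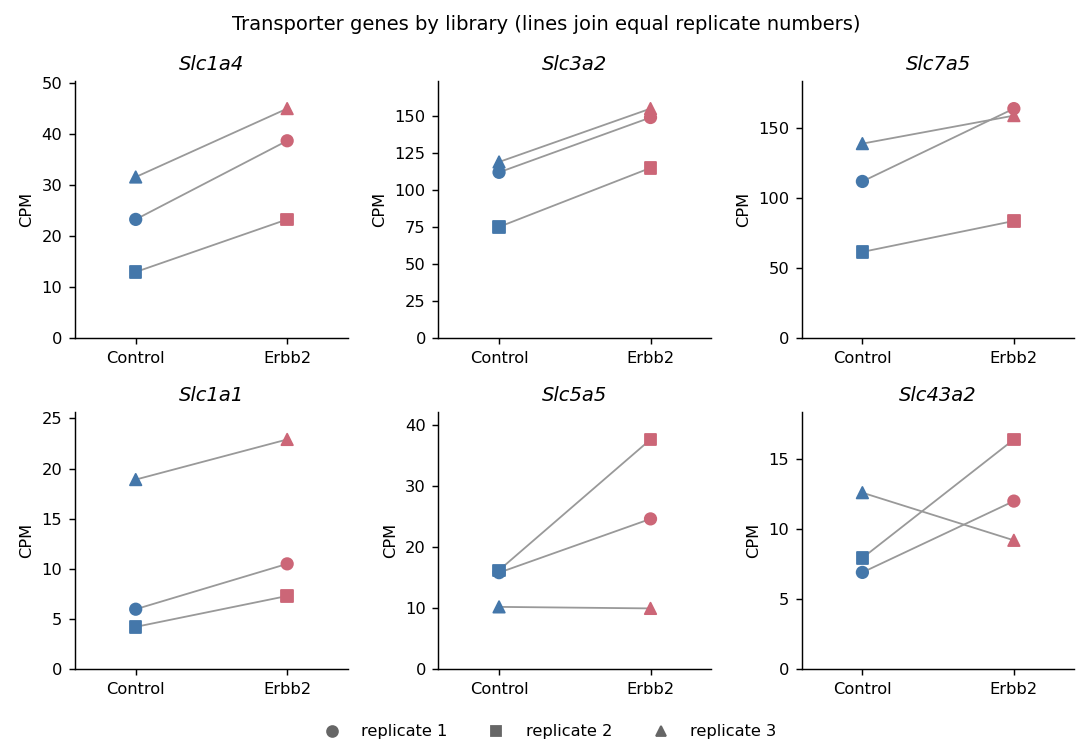
CPM (vertical axis, from 0) of 6 transporter genes in control and Erbb2-overexpressing organoids; each point is a library, its shape gives the replicate number and lines join libraries of equal number. The lines of Slc1a4, Slc3a2 and Slc7a5 rise in 3 of 3 pairs, while those of Slc5a5 and Slc43a2 rise in pairs 1 and 2 and not in pair 3.

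Among the glutamate and neutral amino acid exchangers, 5 of 7 genes were tested and 1 rose. Slc1a4 (ENSMUSG00000020142), a sodium-dependent exchanger of alanine, serine, cysteine and threonine, was at 23.3, 13.0 and 31.6 CPM in control replicates 1, 2 and 3. It was at 38.7, 23.3 and 45.0 CPM in the overexpressing replicates. As with Slc7a5, replicate 2 was lowest in both groups and the groups overlapped. Slc1a4 rose 1.60-fold (log2 fold change 0.68, SE 0.11, adjusted p = 0.00723 in edgeR with the block), and it passed with each pair left out in turn (adjusted p = 0.0424, 0.0468 and 4.9e-06 without replicates 1, 2 and 3). Its close relative Slc1a5, the glutamine exchanger, was at 103 ± 11.9 CPM with the empty vector and 111 ± 18.3 CPM with Erbb2 (SD, n = 3). The log2 difference of Slc1a5 within pairs was 0.32, 0.18 and -0.18, and the fitted value was 0.11 (SE 0.10, adjusted p = 0.65 in edgeR).

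The glutamate carriers of this family did not pass. Slc1a3, best known from glia, had a fitted log2 difference of -0.27 (SE 0.09; edgeR, adjusted p = 0.143), with 78.8, 73.8 and 48.1 CPM with the empty vector and 65.8, 66.9 and 36.3 CPM with Erbb2 (replicates 1, 2 and 3). It was lower in each pair and lowest in replicate 3 of both groups. Slc1a1, the glutamate and aspartate carrier of epithelia and neurons, was at 5.98, 4.22 and 18.9 CPM with the empty vector and 10.5, 7.30 and 22.9 CPM with Erbb2. Its fitted log2 difference was 0.54 (SE 0.17; edgeR, adjusted p = 0.118), and the spread between replicate numbers was wider than that between groups.

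The remaining amino acid families included Slc6a6, the member with the highest level, and 0 of their 18 tested genes passed in edgeR, DESeq2 or limma voom with the block; at an unadjusted p under 0.05 in edgeR 2 were higher, Slc6a9 and Slc7a1, and 0 lower, against 9.64% and 7.2% of all genes. Cationic amino acid transporters had fitted log2 changes above 0 in 4 of 4 tested genes. Slc7a1, which takes up arginine and lysine, was at 221, 153 and 136 CPM with the empty vector and 248, 167 and 176 CPM with Erbb2 (replicates 1, 2 and 3), with a fitted log2 difference of 0.22 (SE 0.08; edgeR, adjusted p = 0.181). Slc7a4, a relative with no established substrate, was the only tested member whose groups did not overlap, against 4.27% of all genes with higher and 4.48% with lower non-overlapping groups. It was at 10.3, 12.7 and 11.9 CPM with the empty vector and 13.0, 12.9 and 13.9 CPM with Erbb2, with a fitted log2 difference of 0.20 (SE 0.15; edgeR, adjusted p = 0.545).

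Of 7 tested sodium-coupled transporters of the Slc38 family, 3 had fitted log2 differences above 0 and 4 below, with a median of 0.00. Slc38a2, which takes up alanine and glutamine and responds to amino acid supply in many cells, was at 254, 193 and 184 CPM with the empty vector and 248, 174 and 209 CPM with Erbb2. The fitted log2 difference of Slc38a2 was 0.00 (SE 0.08), and the pairs went in different directions. Slc38a1, a glutamine carrier, was at 170 ± 23.1 and 161 ± 25.4 CPM, with a fitted log2 difference of -0.08 (SE 0.07). Summed over the 11 genes, the family held 498 to 590 CPM with the empty vector and 505 to 584 CPM with Erbb2. Slc38a9, the lysosomal arginine sensor upstream of mTORC1, was lower in each pair, with a fitted log2 difference of -0.28 (SE 0.15; edgeR, adjusted p = 0.365).

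Slc6a6, the taurine transporter, had the highest level of all members per length. It was at 630, 679 and 448 CPM with the empty vector and 597, 558 and 456 CPM with Erbb2 (replicates 1, 2 and 3), with a fitted log2 difference of -0.11 (SE 0.08; edgeR, adjusted p = 0.541). The creatine transporter gene Slc6a8 was at 92.6 ± 5.53 CPM with the empty vector and 86.4 ± 5.58 CPM with Erbb2, lower in 3 of 3 pairs, with a fitted log2 difference of -0.10 (SE 0.08). Of the proton-coupled transporter family, Slc36a1, of the lysosome, and Slc36a4 had log2 fold changes of -0.13 and -0.09 (SE 0.11 and 0.20). Slc36a1 was lower in each pair, from 26.7 ± 1.97 to 24.5 ± 2.03 CPM.

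**Figure D2:**
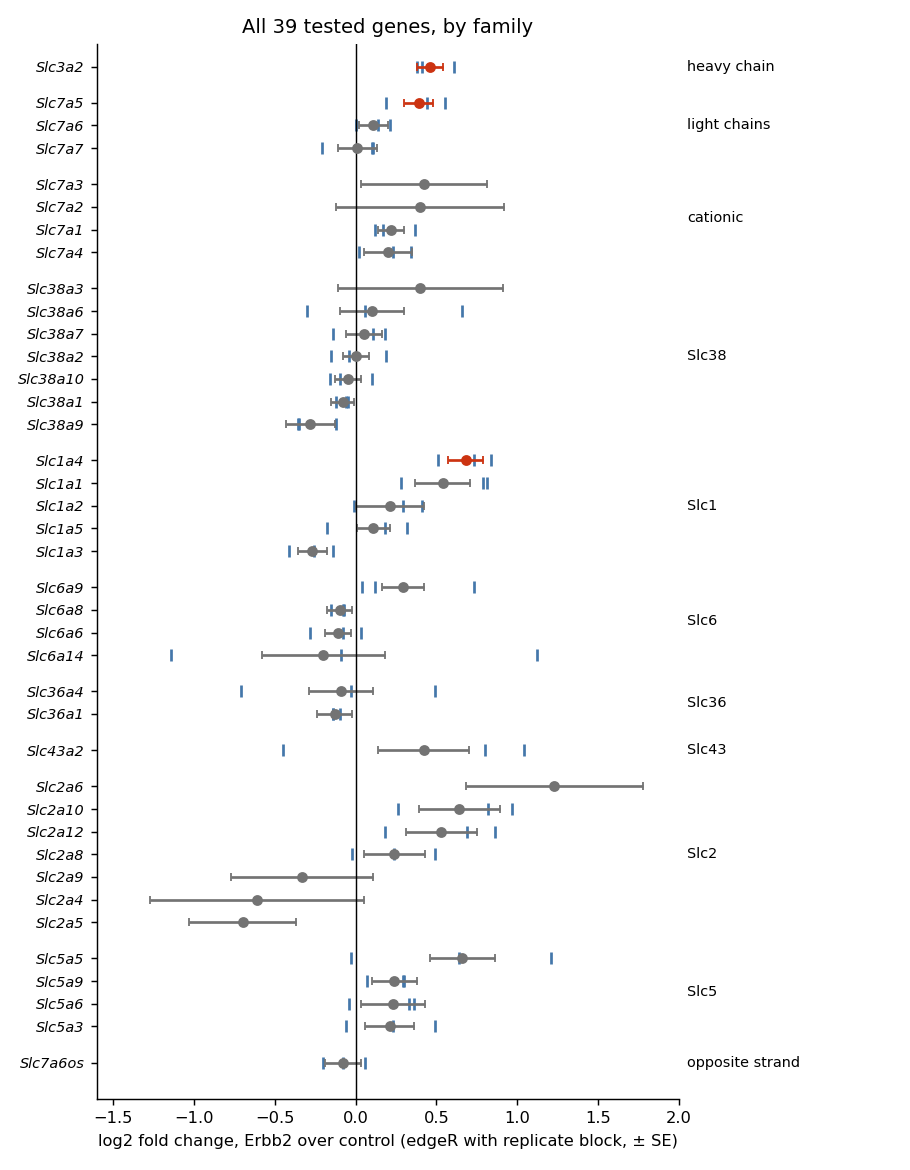
Log2 fold change with its SE (points and bars, horizontal axis) of the 39 tested genes by family, from edgeR with the replicate block; red points passed an adjusted p of 0.05, and blue ticks give the differences within the 3 pairs for genes with a mean of at least 2 CPM. The 3 red points, Slc3a2, Slc7a5 and Slc1a4, lie between 0.39 and 0.68, and Slc38a2 and Slc7a7 lie near 0.

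The sugar transporters among the members, which leave out Slc2a1, were low. Of 7 tested Slc2 members 0 passed in edgeR, DESeq2 or limma voom with the block. At an unadjusted p under 0.05 in edgeR 3 were higher and 0 lower, against the same 9.64% and 7.2% of all genes. Among those higher, Slc2a6 had 1 and 5 counts in control replicates 1 and 2, under the minimum count of 10 of the filter. It passed the filter only with the Erbb2 libraries counted. Together the 11 members of this facilitative family, without Slc2a1, held 15.4 to 22.2 CPM with the empty vector and 21.0 to 23.8 CPM with Erbb2. Slc2a8, an intracellular glucose transporter, was at 5.99 ± 1.18 and 7.02 ± 1.16 CPM, with a fitted log2 difference of 0.24 (SE 0.19). Slc2a12, a glucose transporter of insulin-responsive tissues, was at 3.15, 7.77 and 2.88 CPM with the empty vector and 5.71, 8.83 and 4.66 CPM with Erbb2 (replicates 1, 2 and 3), higher in each pair, with a fitted log2 difference of 0.53 (SE 0.22; edgeR, adjusted p = 0.241). Slc2a5, the fructose transporter, was lower in each pair, at 2.16 ± 0.607 CPM with the empty vector and 1.32 ± 0.447 CPM with Erbb2 (edgeR log2 fold change -0.70, SE 0.33, adjusted p = 0.301). Slc2a2, the glucose transporter of liver and beta cells, had 0 counts in each library.

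The Slc5 family couples sodium to sugars, inositol, vitamins or iodide, and 4 of its 13 genes were tested. Slc5a5, the iodide symporter, which gastric mucosa shares with thyroid, was at 15.8, 16.2 and 10.2 CPM with the empty vector and 24.6, 37.6 and 9.95 CPM with Erbb2. The Erbb2 libraries were the higher ones in pairs 1 and 2 only, and the log2 differences within pairs were 0.64, 1.21 and -0.03. The fitted value was 0.66 (SE 0.20, adjusted p = 0.144 in edgeR with the block). Slc5a3, the myo-inositol symporter, was at 13.6 ± 2.61 and 15.7 ± 0.642 CPM, with a fitted log2 difference of 0.21 (SE 0.15).

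Replicate 3 moved the count of calls the most. Without it 7 members were called higher and 0 lower, where 6.15% of all genes were called higher and 2.56% lower. Besides the 3 genes above these were Slc5a5 (log2 fold change 0.93, adjusted p = 1.36e-07), Slc43a2 (0.93, 0.000179), Slc1a1 (0.81, 0.0113) and Slc2a6 (2.74, 0.0304), of which Slc1a1 and Slc2a6 are named because of these values. Slc43a2, a facilitator of neutral amino acids, was at 6.91, 7.94 and 12.6 CPM with the empty vector and 12.0, 16.4 and 9.20 CPM with Erbb2 (replicates 1, 2 and 3). The difference was thus of opposite sign in pair 3, and the fit of all pairs gave 0.42 (SE 0.28, adjusted p = 0.517 in edgeR). Slc2a6, a lysosomal member of the glucose transporter family, was low, with 1, 5 and 31 counts in controls and 29, 14 and 45 in overexpressing organoids. Without replicate 3 its remaining controls were under the minimum count of 10 of the filter. Slc2a6 was then tested only through the overexpressing libraries, where it was high, so that its call there is no independent support. Without replicate 1, 2 members were called higher (Slc1a4 and Slc3a2) and 1.37% of all genes; without replicate 2, 1 member was (Slc1a4) and 0.958% of all genes. Whether pair 3 differed from the others was not tested.

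**Figure D3:**
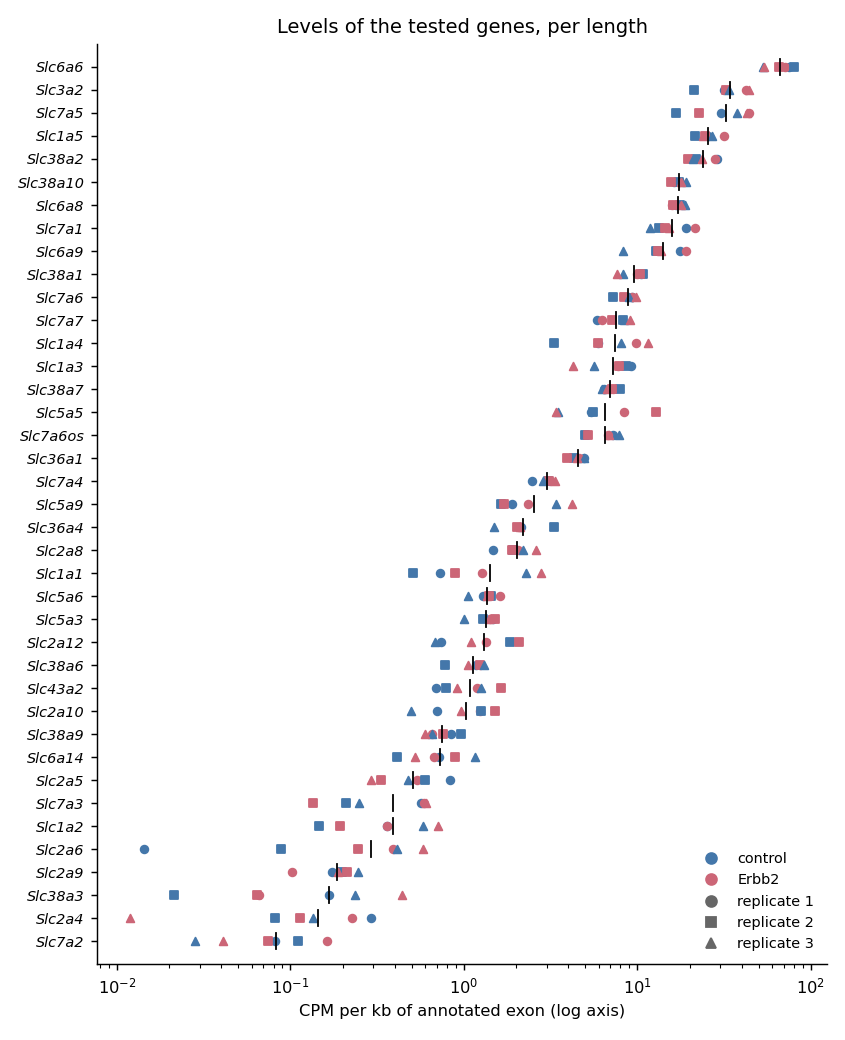
Level of each tested gene in CPM per kb of annotated exon (horizontal log axis); colours give the group, shapes the replicate number and the black bar the mean over 6 libraries. Slc6a6 leads at 66.4 CPM per kb and Slc7a2 is lowest at 0.083, and Slc1a1 shows replicate 3 of both groups above the rest.

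Per length, where levels of different genes can be compared, Slc6a6 was highest at 66.4 ± 11.1 CPM per kb of annotated exon (SD over 6 libraries). Slc3a2 and Slc7a5, which form a single carrier, followed with 34.3 ± 8.19 and 32.4 ± 11.2 CPM per kb and did not differ beyond their spread. Slc1a5 stood at 25.6 ± 3.48 and Slc38a2 at 23.8 ± 3.81 CPM per kb, and these neighbours did not differ beyond their spread either. The highest of the Slc2 members, which leave out Slc2a1, was Slc2a8 at 2.03 ± 0.370 CPM per kb. The highest of the Slc5 family was Slc5a5 at 6.51 ± 3.60 CPM per kb. The length is the union of annotated exons and can exceed that of the transcripts in these cells. Replicate 3 was at least 2-fold above the mean of replicates 1 and 2 in 5 tested members, among them Slc1a1 and Slc1a2, and at least 2-fold below in 3, among them Slc5a5.

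Of the 48 members not tested, 26 had 0 counts in each library, which allows up to 0.125 to 0.170 CPM per library at a floor of 3 counts. Among those at 0 were the noradrenaline and serotonin transporter genes Slc6a2 and Slc6a4, the choline transporter gene Slc5a7 and the proton-coupled transporter family members Slc36a2 and Slc36a3. Slc5a1, the sodium-glucose cotransporter of the small intestine, had between 0 and 7 counts. The remaining untested members reached at most 2.71 CPM, in Slc7a8.

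Genes of related pathways were counted in lists chosen with earlier results of these data known. Of 20 genes of the amino acid response, most of them targets of ATF4, 7 rose and 0 fell, where 2.37% of all genes were called higher and 0.723% lower, and the median log2 fold change was 0.38. At an unadjusted p under 0.05 in edgeR 16 were higher and 0 lower, against 9.64% and 7.2% of all genes. DESeq2 and limma voom with the block called 8 and 7 of the 20. They called 2.91% and 2.47% of all genes higher and 0.762% and 0.842% lower. Pycr1, which makes proline, rose from 8.49 ± 2.46 to 18.9 ± 5.31 CPM (log2 fold change 1.15, adjusted p = 0.00274 in edgeR with the block). Atf5, a related transcription factor, rose from 32.5 ± 16.4 to 51.5 ± 22.3 CPM (0.68, edgeR, adjusted p = 0.0033). Trib3, a pseudokinase that restrains the response, rose from 5.88 ± 2.61 to 11.5 ± 4.85 CPM (0.96, edgeR, adjusted p = 0.0143). The call of Trib3 was lost without replicate 1 or 2 (edgeR, adjusted p = 0.136 and 0.063). Eif4ebp1, Mthfd2, Stc2 and Aldh18a1 also rose, with log2 fold changes between 0.33 and 0.61. Each of them missed the threshold in at least 1 of the fits without replicate 1 and without replicate 2. For Atf4 itself the fitted log2 difference was 0.21 (edgeR, adjusted p = 0.166), and for Asns, which makes asparagine, 0.24 (adjusted p = 0.145). The count called higher was 3, 3 and 10 when replicate 1, 2 or 3 was left out, where 1.37%, 0.958% and 6.15% of all genes were called higher. The list of amino acid sensing upstream of mTORC1 also held genes of mTORC1 itself, such as Mtor and Rptor, and the regulators Tsc1, Tsc2 and Rheb. Sesn2 was counted in the response list instead. Of its 24 tested genes 0 passed in edgeR, DESeq2 or limma voom with the block (1 higher and 1 lower at an unadjusted p under 0.05 in edgeR). The median of the mTORC1 list was 0.03, and 1 of its genes, Rragd, was called higher without replicate 3.

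Of 22 tested glycolysis genes 0 rose and 1 fell, where 2.37% of all genes were called higher and 0.723% lower, and the median was 0.01. Without replicate 3, 4 were called higher, Hk2, Pfkp, Aldoc and Gapdh, where 6.15% of all genes were. Ldhb, a lactate dehydrogenase subunit, fell from 74.5 ± 25.4 to 32.3 ± 9.10 CPM (log2 fold change -1.19, SE 0.09, adjusted p = 4.06e-05 in edgeR with the block). Of 16 other tested carriers of amino acids, peptides, monocarboxylates and sugars, 1 rose and 0 fell, against the same shares of all genes. The gene that rose was Slc15a2, a proton-coupled peptide transporter. It had 0 CPM in control replicates 1 and 2 and passed the filter on low counts only through the Erbb2 group, where it was high. Slc15a2 was at 0, 0 and 0.430 CPM with the empty vector and 3.36, 2.21 and 1.29 CPM with Erbb2 (replicates 1, 2 and 3) (adjusted p = 0.0191 in edgeR with the block; 0.0739 and 0.0651 without replicates 1 and 2), and DESeq2 with the block called 0 of these 16 genes. Without replicate 3, 3 of the 16 were called higher, Slc15a2, Slc16a1 and Slc45a3. Of 4 tested partners and regulators of transporters 0 passed in edgeR, DESeq2 or limma voom with the block, and 0 did at an unadjusted p under 0.05 in edgeR. Without replicate 3, 1 was called lower, Sgk1, a kinase that regulates transporters (edgeR, adjusted p = 8.27e-14). Sgk1 was at 143, 137 and 61.1 CPM with the empty vector and 71.1, 83.6 and 112 CPM with Erbb2, lower in pairs 1 and 2 and higher in pair 3.

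**Figure D4:**
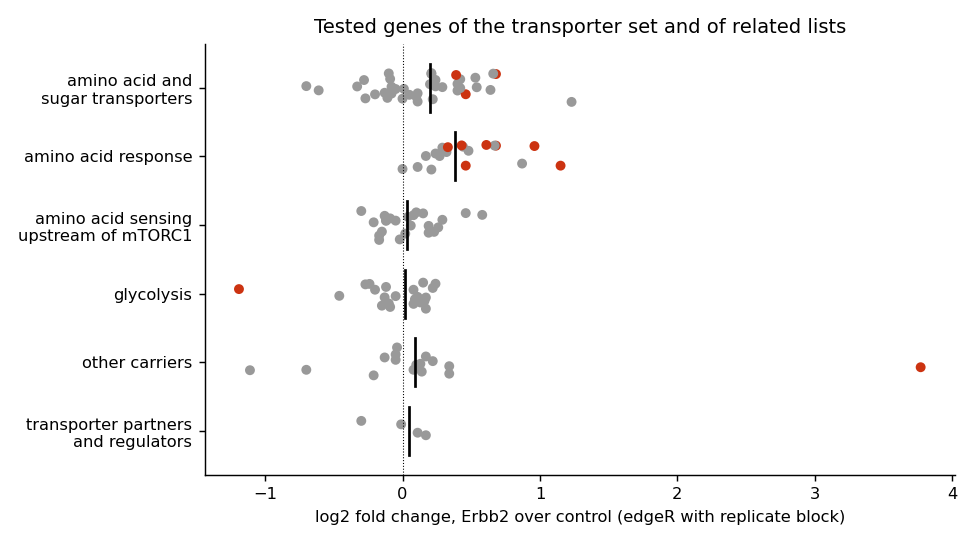
Log2 fold change (horizontal axis, edgeR with the replicate block) of the tested genes of each list; each point is a gene, red points passed an adjusted p of 0.05 and black bars are medians. The medians are 0.20 for the transporters, 0.38 for the amino acid response and between 0.01 and 0.09 for the other 4 lists.

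Markers of gastric epithelium and of other cells were read beside these genes, since in bulk RNA fewer cells of a type and less RNA per cell cannot be told apart. The epithelial markers Epcam, Cdh1, Krt8, Krt18, Krt19 and Cldn18 summed to 6860 to 8490 CPM with the empty vector and 8160 to 8510 CPM with Erbb2. None of these 6 passed in edgeR with all pairs, while DESeq2 with the block called 1 and edgeR without replicate 3 called 3 higher. Among them Cldn18, a tight junction gene of the stomach, was at 307, 318 and 920 CPM with the empty vector and 702, 752 and 1170 CPM with Erbb2 (edgeR log2 difference 0.93, adjusted p = 0.12, or 7.4e-27 without replicate 3). The 7 parietal cell markers summed to 175 to 286 CPM with the empty vector and 196 to 280 CPM with Erbb2, most of it Kcnq1, and Atp4b and Slc26a7 were at 0 in each library. The 6 chief cell markers summed to 69.5 to 139 and 61.1 to 117 CPM, with Pgc at 52.0 to 97.3 CPM, Lipf at no more than 0.113 CPM and Cpb1 at 0. Of the tested parietal and chief cell markers 0 passed in edgeR, DESeq2 or limma voom with the block, and 0 did at an unadjusted p under 0.05 in edgeR. Of 4 mucous neck cell markers 2 rose, where 2.37% of all genes were called higher. They were Tff2 (log2 fold change 0.91) and Agr2 (0.59, adjusted p = 0.182 in edgeR without replicate 1). Cd44 (log2 difference 0.93) did not pass with all pairs (edgeR, adjusted p = 0.176) or without replicate 1 (0.634). It was called higher without replicate 2 (0.0256) and without replicate 3 (4.03e-13). The list summed to 428 to 862 CPM with the empty vector and 751 to 1250 CPM with Erbb2, with 0 of 4 genes at 0. Of 5 tested pit cell markers 1 rose, Psca (1.03), and 4 had log2 differences above 0, with a list median of 1.16. All 6 summed to 4900 to 7770 and 4320 to 6100 CPM, most of it Muc1, which was lower in each pair (log2 difference -0.26, adjusted p = 0.145 in edgeR). Tff1, Gkn1 and Gkn2 had log2 differences of 1.25, 1.16 and 2.03 and did not pass (edgeR, adjusted p = 0.325, 0.131 and 0.0825). Tff1 was called higher without replicate 1 (edgeR, adjusted p = 0.00397) and not without replicate 2 or 3 (0.74 and 0.378). Of the neuronal and glial markers Elavl4 was at 0 in each library and Tubb3 fell (-1.33, adjusted p = 0.405 without replicate 2), and the list summed to 3.36 to 9.35 and 2.50 to 4.75 CPM. The part of these cell types in the transporter values was not tested. Fibroblast, immune cell, endothelial, enteroendocrine and smooth muscle markers summed to at most 14.3 CPM per list in any library, and of their tested genes 0 passed in edgeR, DESeq2 or limma voom with the block (1 endothelial gene at an unadjusted p under 0.05 in edgeR). Without replicate 2, the endothelial gene Tek was called higher, and without replicate 3 the enteroendocrine gene Chgb.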

How the data were processed

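Counts of reads per Ensembl gene were deposited by the authors as whole numbers, 1 table per library with 25528 genes. The submitters' processing notes name STAR, featureCounts and GRCm39. Not given in the sources used here were versions, annotation and strand setting. Symbols (25424 matched) and exon lengths came from GENCODE M21, and promoters from RefSeq (GRCm38.p6).

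Sample titles gave the groups and the replicate numbers. Genes were kept by filterByExpr in edgeR 4.0.16 (R 4.3.3; minimum count 10), which left 12593, and tested by its quasi-likelihood method (glmQLFTest, robust, two-sided) after TMM scaling, with p-values adjusted by Benjamini-Hochberg over all genes (threshold 0.05). SE is the log2 fold change over the square root of F. The group was the single term; the replicate number as a block was the listed alternative. Deviations from group means correlated at 0.333, 0.660 and 0.707 within numbers 1, 2 and 3, across genes. Between numbers 1 and 2 they correlated at 0.128 and 0.0962, and between number 3 and the others at -0.657 to -0.280. The numbers were therefore taken to pair the libraries, most weakly for number 1, and this rests on the counts alone. DESeq2 1.42.0, limma 3.58.1 (voom), other filters and scaling, and libraries left out were alternatives. The fits with and without the block were also run on simulated counts, whose outcome is not given here. The simulated means held the replicate number, so that this run cannot decide whether the block is apt for these libraries.

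Members and lists were chosen with earlier results of these data known. Named are members called in either fit, the 2 with the highest mean CPM in each role group, and any with a log2 change of at least 1 and groups that do not overlap; other genes were named after their values were seen.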

Additional observations from a re-analysis of the deposited data

How the results depend on the processing

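With the replicate block the count of members called higher went from 0 to 3, and the count called lower stayed at 0. Without the block, counts in both directions were 0 under relative log expression scaling, DESeq2, a filter removed or set to 1 CPM in at least 3 libraries, and with each library left out. With the block, the count called higher was 3 under each of those scalings, filters and tools and under limma voom, and ranged from 1 to 7 with a pair left out; the count called lower was 0 in each. Slc3a2 missed the threshold without replicate 2 (log2 fold change 0.41), and Slc7a5 without replicate 1 (0.31) or 2 (0.38). Slc5a5 and Slc43a2 passed without replicate 3 (0.93 each). The cause of these shifts was not tested. Of 228 values of 19 named members under the alternatives, 12 were of opposite sign to the main value, all in uncalled genes: Slc38a2, at 0.00 with scaling by relative log expression, with DESeq2 and without overexpressing replicate 3, 0.16 without control replicate 1 and 0.12 without overexpressing replicate 2, and with the block 0.02 and 0.09 without replicates 1 and 2; Slc1a5, -0.03 without overexpressing replicate 1 and 0.00 with the block without replicate 1; Slc36a4, 0.19 without control replicate 2 and 0.24 with the block without replicate 2; and Slc38a1, 0.05 without overexpressing replicate 3. Without 1 library the values of Slc36a4, Slc38a1 and Slc38a2 ranged from -0.39 to 0.19, from -0.18 to 0.05 and from -0.14 to 0.16. Of the 48 members below the filter, 26 had 0 counts in each library, and 0 of the other 22 were called in edgeR without a filter, with or without the block.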

Other observations

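Some members below the filter had more than 10 counts in a library, 4 in number, and are named after their values were seen. Slc7a8, a light chain that pairs with Slc3a2, had 5, 3 and 7 counts in control replicates 1, 2 and 3 and 0, 4 and 65 in the overexpressing ones, so that its reads came mostly from overexpressing replicate 3. Slc43a1, a facilitator of large neutral amino acids, had 0, 0 and 19 counts in controls and 8, 6 and 41 in overexpressing organoids, and was higher in each pair. Slc2a3, a glucose transporter best known from neurons, had 5, 2 and 6 counts in controls and 0, 2 and 16 in overexpressing organoids. Slc6a15, a carrier of branched-chain amino acids, had 0, 3 and 4 counts in controls and 9, 1 and 14 in overexpressing organoids. None of the 4 passed the filter, and none was called in edgeR without it.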
